A study of Mus musculus with 4 samples.

Results

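The Zfp9xx genes are the mouse protein-coding genes whose symbol is Zfp followed by a 3-digit number that begins with 9. In RefSeq's table for GRCm38.p6, the assembly named mm10, 62 of 21887 protein-coding genes met this rule, on 13 chromosomes. Their accessibility was read from ATAC-seq, in which a transposase cuts open DNA, in germ cells sorted by an Oct4-EGFP reporter from female C57BL/6 embryos at embryonic day 15.5. The 2 control libraries carried the genotype Control and the 2 knockout libraries the genotype Snf5 CKO, and all 4 shared strain, sex, stage and sort. Snf5, encoded by Smarcb1, is a core subunit of the SWI/SNF remodelling complex. Nothing in the sources used here gives the Cre driver, the number of animals per library or the state of the reporter allele. Whether replicates were separate animals is not labelled, and p-values measure only the spread between these libraries, which may be technical.

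Zfp symbols are given to genes for zinc finger proteins, which bind DNA through arrays of short zinc-coordinating repeats. Many mouse zinc finger genes also carry a KRAB box, a domain that recruits the corepressor Trim28 and the histone methyltransferase Setdb1. They are known for silencing transposable elements in embryonic and germ cells, and they multiplied by local duplication into clusters of close copies. Which Zfp9xx proteins hold a KRAB box was not analysed here.

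Peaks had been called by the authors in each library separately, and a gene counted as open where a library's peak touched the 1 kb on either side of an annotated gene end. A gene open in all 4 libraries was called kept, a gene open in both controls and neither knockout library lost, and the reverse gained. The libraries held between 28625 peaks (Snf5 CKO 2) and 45422 peaks (Snf5 CKO 1), covering 16.9 to 27.4 Mb. Their depth is unknown, so an absent peak may be an open site below detection. Smarcb1 itself had peaks of 929 and 1139 bp in the controls and none in the knockout libraries. Of the markers, 8 of 8 germ cell genes and 4 of 5 ovarian supporting cell genes were kept, Amhr2 having no peak, and 1 of 4 stroma and 0 of 4 endothelium and blood genes were kept. The kept germ cell genes included Pou5f1, the Oct4 gene. Supporting cell promoters were thus open in these sorted cells, and the part of other cell types in the values of the Zfp9xx genes was not tested.

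Most Zfp9xx genes had an open gene end in both genotypes. Of the 62, 45 (72.6%) were kept, beside 55.0% of all protein-coding genes and 246 of the 305 other numbered Zfp genes (80.7%). A further 11 (17.7%) had no peak in any library, beside 33.6% of all genes, and 5 had peaks in 1 or 3 libraries, a mixed class that held 8.29% of all genes. The remaining gene, Zfp941, was lost, a share of 1.61% beside 2.97% of all genes. No Zfp9xx gene was gained, beside 0.187% of all genes. Both rare classes were thus near their background shares.

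Counted by library, Control 1 and Control 2 had 48 and 49 open Zfp9xx genes, and Snf5 CKO 1 and Snf5 CKO 2 had 50 and 46. The control mean was 48.5 ± 0.707 (SD, n = 2) and the knockout mean 48.0 ± 2.83 (SD, n = 2), and the two-sided exact permutation test over libraries gave p = 1. The knockout counts lay on both sides of the control counts. Over all genes the open share was 63.3%, 63.0%, 60.4% and 56.4% in the same order.

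Where a strand could be assigned, most peaks lay at the start of the gene. The RefSeq promoter table, which covers 250 bases before to 50 after each transcription start, matched 55 of the 62 genes and gave their strand. Of these 55, 45 had peaks at the annotated start end only (for Zfp936 far from its listed start), Zfp975 at both ends, Zfp957 at the 3′ end only, and 8 at neither end. The 3′ peak of Zfp975 was short, at 306 and 335 bp in the controls and 277 and 285 bp in the knockout. Its start carried 852, 770, 725 and 788 bp in Control 1, Control 2, Snf5 CKO 1 and Snf5 CKO 2.

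The Zfp9xx genes were next read by their grouping along the chromosomes. With neighbours joined up to 500 kb, 42 of the 62 genes fell into 8 clusters and 20 stood alone. The share that this rule would join in other gene sets was not computed. All 11 genes without a peak lay in clusters, 9 of them in a single cluster on chromosome 4. Of the 20 genes standing alone, 18 were kept.

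**Figure D1:**
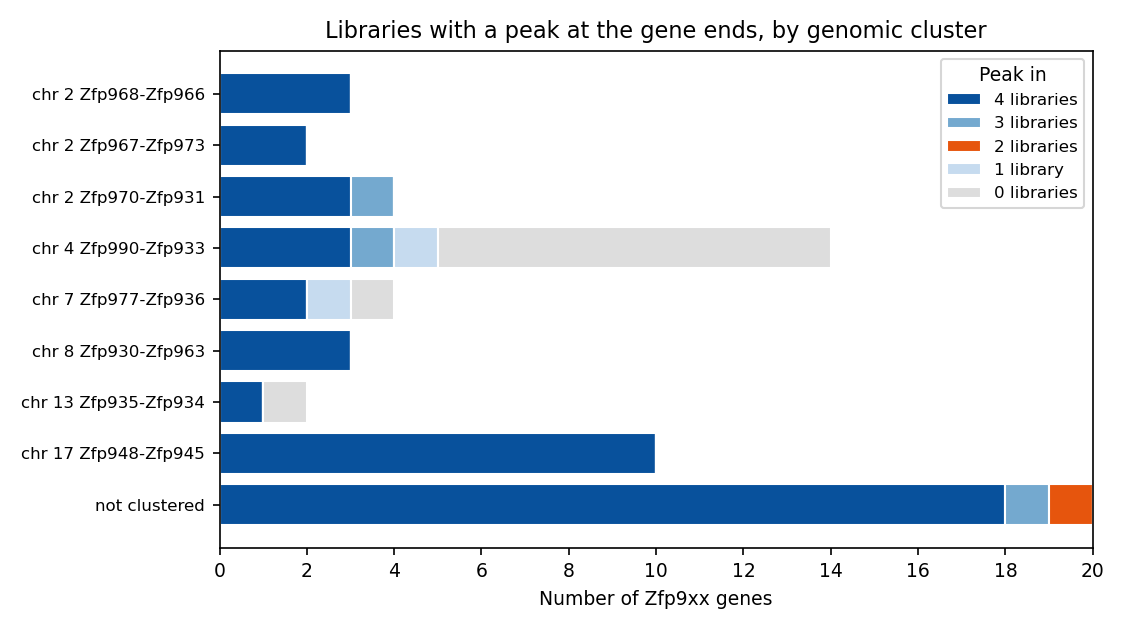
Number of Zfp9xx genes in each genomic cluster (horizontal axis) by the number of the 4 libraries with a peak within 1 kb of a gene end (colours). The chromosome 17 cluster is open in all 4 libraries at 10 of 10 genes, the chromosome 4 cluster at 3 of 14, and the only gene with peaks in exactly 2 libraries is Zfp941, outside the clusters.

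The chromosome 4 cluster, from Zfp990 to Zfp933, spanned 2.34 Mb (chr4:145510759-147849126, mm10) and held 14 Zfp9xx genes. Of these, 3 were kept (Zfp978, Zfp982 and Zfp991), 9 had no peak at either end (Zfp979, Zfp980, Zfp981, Zfp984, Zfp987, Zfp988, Zfp990, Zfp992 and Zfp993) and 2 were mixed (Zfp933 and Zfp985). The span was not empty of peaks: it held 47, 46, 81 and 42 peaks in Control 1, Control 2, Snf5 CKO 1 and Snf5 CKO 2. This was 20.1, 19.7, 34.6 and 18.0 peaks per Mb, against 14.5, 13.5, 16.7 and 10.5 per Mb across the chromosomes. Snf5 CKO 1, the library with the most peaks, was also highest here. Counting every protein-coding gene in the span, 4 of 18 were kept and 11 had no peak.

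The chromosome 17 cluster, from Zfp948 to Zfp945, was the opposite case. It spanned 1.30 Mb (chr17:21565816-22867309) and all of its 10 Zfp9xx genes were kept: Zfp942, Zfp943, Zfp944, Zfp945, Zfp946, Zfp947, Zfp948, Zfp983, Zfp994 and Zfp995. Of all 19 protein-coding genes in it, 15 were kept. Zfp942 and Zfp943 run away from each other and share a peak of 1209, 1018, 1040 and 812 bp, so they give 1 measurement rather than 2. The peak of Zfp944 likewise holds an end of Zfp758.

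The other clusters were fully or partly open. On chromosome 2, Zfp965, Zfp966 and Zfp968, the pair Zfp967 and Zfp973, and 3 of 4 genes from Zfp970 to Zfp931 (Zfp931, Zfp970 and Zfp971) were kept. Zfp930, Zfp963 and Zfp964 on chromosome 8 were all kept. On chromosome 7, Zfp975 and Zfp977 were kept beside Zfp936 and Zfp976, and on chromosome 13 Zfp935 was kept and its neighbour Zfp934 had no peak. The kept genes outside clusters were Zfp932, Zfp937, Zfp938, Zfp939, Zfp940, Zfp949, Zfp950, Zfp951, Zfp952, Zfp953, Zfp954, Zfp956, Zfp958, Zfp959, Zfp960, Zfp961, Zfp974 and Zfp996.

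For 4 of the closed or mixed genes the annotated gene end was not where transcription starts in the promoter table. The outermost listed start of Zfp976 lies 1663 bp inside the gene, and it had peaks of 777, 751, 728 and 726 bp, with folds of 6.22, 6.89, 7.22 and 6.97 over local background in the authors' lists. Zfp936 has its listed start 63424 bp inside the annotated gene, with peaks of 757, 836, 761 and 812 bp there. Zfp984, with a start 2441 bp inside, had 652, 615, 563 and 470 bp, and Zfp981, with a start 12920 bp inside, had 260, 322, 655 and 299 bp. All 4 genes were thus open at the listed start in every library. Read by listed starts, 45 of the 55 matched genes were kept, 1 was lost, 3 were mixed and 6 had no peak, the last being Zfp957, Zfp979, Zfp980, Zfp987, Zfp988 and Zfp993.

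Zfp941 (gene identifier 407812, chr7:140807453-140822201, minus strand) was the single lost gene. Control 1 had a peak over its start at chr7:140821372-140822279, 908 bp long with a fold of 4.78 and a −log10 q of 8.42. Control 2 had a peak at chr7:140821512-140822309, 798 bp long with a fold of 4.21 and a −log10 q of 4.71. The nearest peak to this start was 22701 bp away in Snf5 CKO 1 and 33830 bp away in Snf5 CKO 2, and apart from the control peaks over the start, which reach into the gene, no library had a peak within it. Both control folds were below the median of the open Zfp9xx genes in their lists. The call held under each setting tried, but most settings could not have changed it. Leaving out a library cannot undo it, and the wider windows stop far short of the nearest knockout peaks. The −log10 q threshold of 3 lies below the values of both control peaks.

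The 5 mixed genes differed mainly in what Snf5 CKO 2, the shortest list, lacked and what Snf5 CKO 1, the longest, added. Zfp933 had 479 and 682 bp in the controls and 402 bp in Snf5 CKO 1, while Snf5 CKO 2 had no peak. Zfp957 had 573, 440 and 403 bp in the same libraries, all at its 3′ end, and none in Snf5 CKO 2. Snf5 CKO 1 alone gave a peak for Zfp985 (200 bp, fold 3.20) and for the lower-coordinate end of Zfp936 (272 bp, fold 3.66). Zfp972 went the other way, with no peak in Control 1, 241 bp (fold 4.01) in Control 2, 557 bp (fold 9.82) in Snf5 CKO 1 and 327 bp (fold 6.52) in Snf5 CKO 2. The calls here turned on 1 library. Without Snf5 CKO 1, Zfp933 and Zfp957 joined Zfp941 as lost. Without Control 2 Zfp972 counted as gained, and without Snf5 CKO 2 Zfp985 and Zfp936 did.

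Promoter sequences, credited to RefSeq on GRCm38.p6, were read beside the peaks, which need not cover all printed bases. At Zfp941 the control peaks reached 101 and 131 bp upstream of the start, and Zfp980 had no peak. The 250 bases before the start follow for 4 genes at the extremes: Zfp941, the lost gene (chr7:140822179-140822428, minus strand), Zfp980, without a peak (chr4:145670447-145670696, plus strand), Zfp952, with the most negative length ratio of the kept genes (chr17:32992889-32993138, plus strand), and Zfp940, with the most positive one (chr7:29853649-29853898, minus strand). Capitals mark CCAAT boxes, a motif of the factor NF-Y, read as CCAAT on the gene strand and as ATTGG on the opposite strand.
Zfp941: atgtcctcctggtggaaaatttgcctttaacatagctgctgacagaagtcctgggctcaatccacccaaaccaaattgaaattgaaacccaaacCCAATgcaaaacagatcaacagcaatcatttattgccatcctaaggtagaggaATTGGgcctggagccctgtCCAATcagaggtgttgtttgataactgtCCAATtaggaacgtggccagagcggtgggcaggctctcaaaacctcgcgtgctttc
Zfp980: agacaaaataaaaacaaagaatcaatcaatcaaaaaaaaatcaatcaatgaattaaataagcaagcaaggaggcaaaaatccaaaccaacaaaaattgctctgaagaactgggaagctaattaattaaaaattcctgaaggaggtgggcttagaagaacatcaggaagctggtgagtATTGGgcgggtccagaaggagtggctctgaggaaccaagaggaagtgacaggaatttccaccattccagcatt
Zfp952: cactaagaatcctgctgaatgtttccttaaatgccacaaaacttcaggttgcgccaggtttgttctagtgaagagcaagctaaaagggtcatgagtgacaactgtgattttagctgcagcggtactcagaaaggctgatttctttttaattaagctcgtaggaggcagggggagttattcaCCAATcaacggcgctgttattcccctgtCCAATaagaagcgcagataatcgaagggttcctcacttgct
Zfp940: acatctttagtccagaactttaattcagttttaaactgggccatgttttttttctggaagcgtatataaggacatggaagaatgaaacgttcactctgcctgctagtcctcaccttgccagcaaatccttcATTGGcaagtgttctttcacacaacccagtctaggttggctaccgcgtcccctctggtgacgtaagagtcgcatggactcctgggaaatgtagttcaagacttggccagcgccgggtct

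CCAAT was common across the Zfp9xx promoters, read over the whole 300 bases on both strands. It was found in 31 of the 41 kept genes with a promoter (75.6%) and in 7 of the 8 without a peak at a gene end (3 of these 8, Zfp976, Zfp981 and Zfp984, were open at the listed start), against 94 of 202 kept other numbered Zfp genes (46.5%), 40.2% of all kept genes and 39.2% of all promoters in the table. The 31 kept genes held 50 matches at a median of −76.5 bases from the start, 32 of them on the gene strand, and 17 genes held 2 or more. Copies of a promoter count more than once in these values. Zfp965, Zfp966, Zfp967, Zfp968, Zfp970, Zfp971 and Zfp973, near copies described below, are all among the 17. Zfp941, open in the controls alone, held 4 matches, and the closed promoter of Zfp980 held 1. GGGCGG, the GC box of Sp-family factors, was in contrast found in 14 of 41 kept genes (34.1%) and 5 of the 8 without a peak at a gene end, against 50.5% of kept other numbered Zfp genes, 67.8% of all kept genes and 46.3% of all promoters.

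The other 8 motifs of the list, searched on both strands, were less frequent. CACGTG was found in 6 of the 41 kept promoters, against 7.91% of all promoters, CNCCTCAG in 5 (8.57% of all), CCGGAAGT in 3 (5.28%), and TGACGTCA (2.33%) and GCCATNTTG (3.02%) in 1 each. The NRF1 motif (1.33% of all), the BANP motif (0.726%) and TTTGGCGC (0.663%) were found in 0 of the 41. A match is a string of letters, and binding was not measured.

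Reading the promoters side by side showed a longer shared element, chosen after the sequences were seen. In it CCAATCA is followed, 18 bases on, by GCCAGTCA, both on the gene strand. Searched on either strand, the pair stood in 16 of 55 Zfp9xx promoters (29.1%) and in 3 of 250 other numbered Zfp promoters (1.20%). Over all 17492 it stood in 53 (0.303%), the Zfp9xx genes included, so most carriers lay outside the Zfp9xx genes. Among these others were Zfp33b and many genes with Gm symbols. Near copies of a promoter, described below, were counted separately. The element is printed for 6 genes from 3 chromosomes, with both parts in capitals, beside Zfp958, where the second part differs: Zfp967 (chr2:176520930-176520972, plus strand), Zfp931 (chr2:178078501-178078543, minus), Zfp932 (chr5:109996445-109996487, plus), Zfp951 (chr5:104860097-104860139, minus), Zfp975 (chr7:42692798-42692840, minus), Zfp976 (chr7:42642624-42642666, minus) and Zfp958 (chr8:4613095-4613137, plus).
Zfp967: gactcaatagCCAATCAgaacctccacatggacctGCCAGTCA
Zfp931: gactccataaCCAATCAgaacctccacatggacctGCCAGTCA
Zfp932: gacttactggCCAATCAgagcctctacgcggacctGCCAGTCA
Zfp951: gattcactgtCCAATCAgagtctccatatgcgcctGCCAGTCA
Zfp975: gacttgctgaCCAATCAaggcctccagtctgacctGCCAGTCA
Zfp976: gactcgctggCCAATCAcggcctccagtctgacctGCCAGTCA
Zfp958: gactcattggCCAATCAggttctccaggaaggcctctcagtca

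The 13 kept genes with it had a median log2 ratio of knockout over control peak length of −0.16 and 6 were shorter in both knockout libraries than in both controls. The 28 kept genes without it had −0.18 and 11 shorter. Peaks at genes with the pair were shorter in each library, with medians of 808, 626, 672 and 544 bp against 908, 889, 837.5 and 741.5 bp. As single words on either strand, CCAATCAG stood in 19 of the 41 kept promoters (46.3%) and 0 of the 8 without a peak at a gene end, against 6.90% of all kept genes, and GCCAGTCA in 13 and 1, against 1.63%. Beyond the 13 kept genes, the pair was found at Zfp936, Zfp972 and Zfp976.

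Zfp9xx promoters were poor in CpG for open promoters. CpG density was taken as the observed count over the count expected from the C and G content. Kept Zfp9xx promoters had a median of 0.427 (range 0.171 to 0.907, n = 41), against 0.688 in kept other numbered Zfp genes (n = 202) and 0.782 in all kept genes (n = 9718). Their median number of CpG was 8 in 300 bases, against 22 in all kept genes, and their median GC content 53.0% against 62.0%. The 8 matched Zfp9xx genes without a peak at a gene end, 3 of them open at the listed start, had a median CpG density of 0.359, and all genes without a peak 0.172. All lost genes had a median of 0.476 (n = 481), and the lost Zfp941 had 0.274.

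**Figure D2:**
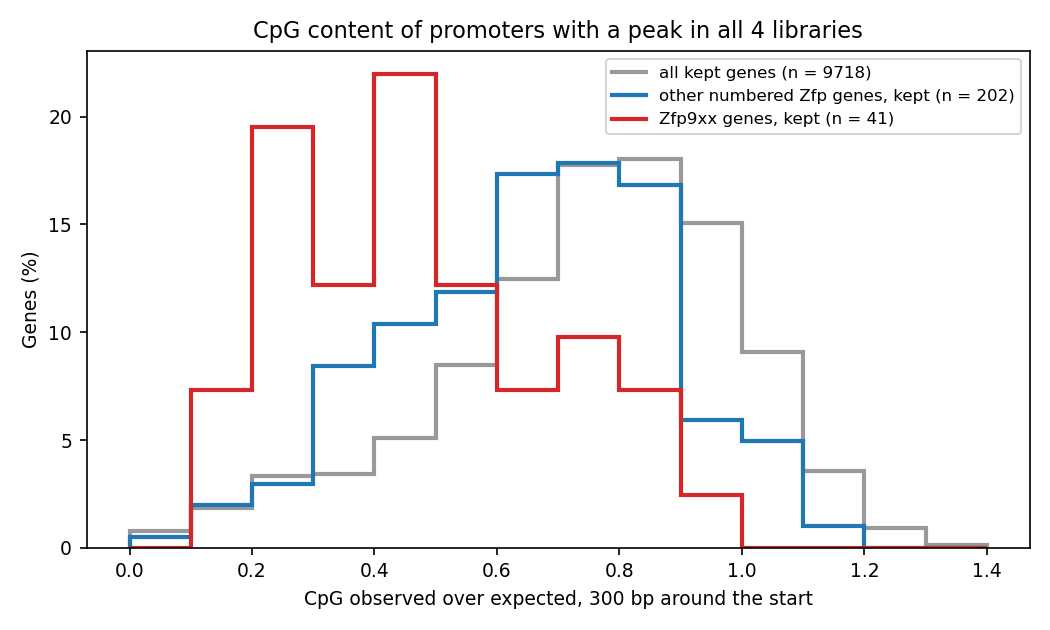
Share of genes in percent (vertical axis) by CpG observed over expected in the 300-base promoter (horizontal axis), for kept Zfp9xx genes, kept other numbered Zfp genes and all kept genes. The Zfp9xx genes lie between 0.171 and 0.907 with a median of 0.427, to the left of the medians of 0.688 and 0.782, and 3 of all kept genes lie beyond the end of the axis at 1.4.

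Some Zfp9xx promoters are near copies of each other, which bears on which gene a 50-bp read came from. Zfp966 and Zfp967 have identical 300-base promoters, Zfp968 and Zfp973 differ at 1 position, and Zfp965 and Zfp971 at 9. In 10 of the 55 genes at least 50% of the 50-base strings of the promoter also occurred in the promoter of another locus (5.08% of all genes), and in 5 all of them did: Zfp966, Zfp967, Zfp968, Zfp970 and Zfp973. All 10 were kept. The sources used here do not say how reads that map to more than 1 place were treated, so peaks at these copies cannot be told apart. In 28 genes no such string was shared, and 23 of these were kept. Over the 8 matched genes without a peak at a gene end, some of them open at the listed start, the median share was 8.76%.

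Over the 45 Zfp9xx genes open in all libraries, median length was lower in both knockout libraries than in both controls, by less than over all kept genes. The length counted is that of all peaks touching the windows of a gene. The library medians were 872 and 794 bp for the controls, then 758 and 721 bp for the knockout, against 1171, 1151, 882.5 and 826 bp over all 12030 kept genes. Control medians averaged 833 ± 55.2 bp (SD, n = 2) and knockout medians 739.5 ± 26.2 bp (SD, n = 2), a difference of −93.5 bp, against −307 bp over all kept genes. Each of these 2 differences gave p = 0.333 in the two-sided exact permutation test over libraries, the smallest value that 2 libraries against 2 allow.

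Set against all kept genes of the same library, the Zfp9xx median was 74.5% and 69.0% in the controls and 85.9% and 87.3% in the knockout. As a log2 ratio this was −0.43 and −0.54, then −0.22 and −0.20, a difference of 0.27 between the genotypes. The groups did not overlap, and the exact permutation p was again 0.333, so the design cannot take this contrast past 0.05. The gap between Zfp9xx and other open promoters was therefore smaller in both knockout libraries than in either control.

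**Figure D3:**
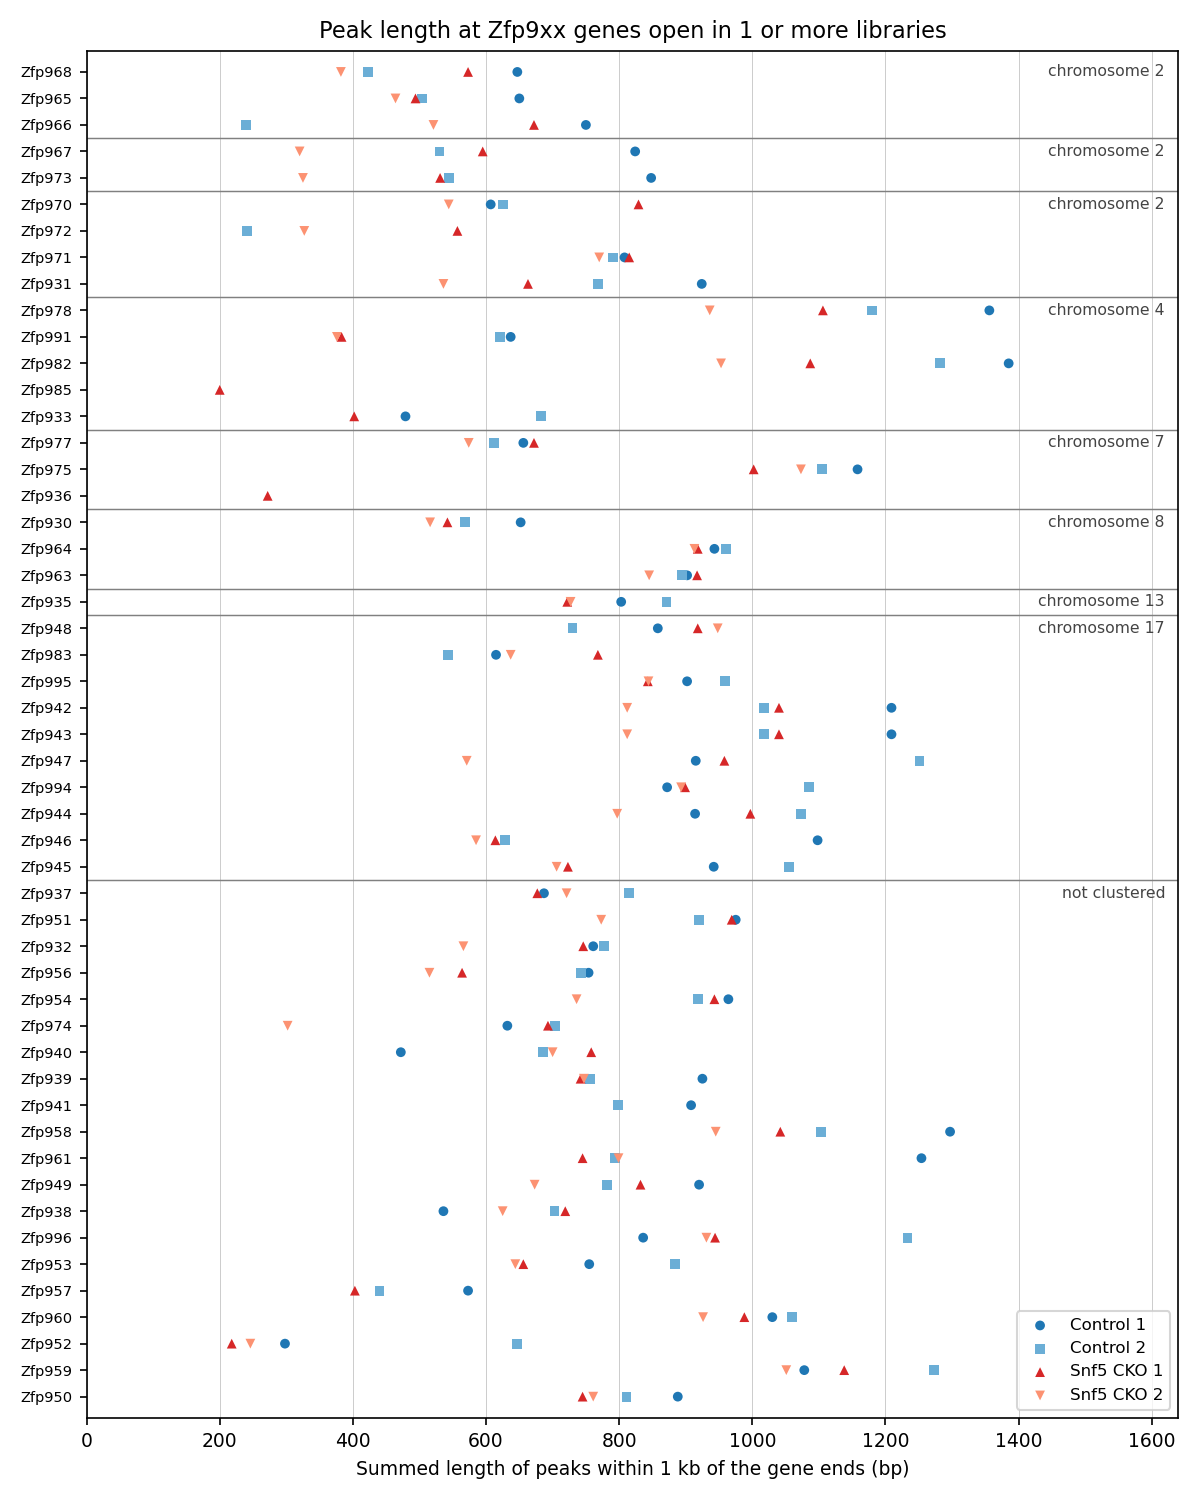
Summed length in bp of the peaks at the gene ends (horizontal axis) of each Zfp9xx gene open in 1 or more libraries, grouped by cluster, with a symbol for each library that had a peak. Control symbols mostly lie to the right of knockout symbols in the chromosome 4 rows, from 1385 to 953 bp for Zfp982, while at Zfp940, Zfp948 and Zfp983 they lie to the left.

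Gene by gene, the median log2 ratio of mean knockout over mean control length was −0.17 (quartiles −0.39 and −0.10, range −1.03 to 0.33), with 39 of 45 below 0. Other numbered Zfp genes had −0.32 and all kept genes −0.41, with 11371 of 12030 below 0. Both knockout lengths were below both control lengths at 21 Zfp9xx genes (46.7%), beside 77.3% of all kept genes and 163 of 246 other numbered Zfp genes (66.3%). Both were above at 3 Zfp9xx genes (6.67%), beside 1.27% of all, and the lengths overlapped at 21, beside 21.4%. Peak lengths within a library shift together, so genes are not replicates here. The count of 21 rose to 36 without Snf5 CKO 1 and was 25 without Snf5 CKO 2, where all kept genes gave 10902 and 10265. With a library left out the rule is easier to meet, so such a count cannot fall. Without Snf5 CKO 1 the median ratio was −0.31 against −0.46 over all genes, and without Snf5 CKO 2 −0.14 against −0.37.

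Zfp9xx peaks were short to begin with. Over all kept genes the median ratio ran from 0.003 at control lengths under 500 bp to −0.48 from 1500 bp on. Control length is also the denominator of the ratio, so sorting by it can itself bring such a trend, and its part was not tested. Among genes with a mean control length of 500 to 1000 bp, the median log2 ratio was −0.17 at 32 Zfp9xx genes, −0.30 at 116 other numbered Zfp genes and −0.36 at all 3605. In this range 46.9%, 53.4% and 63.2% were shorter in both knockout libraries. In its lower part, 500 to 750 bp, the order of the Zfp groups turned, with −0.21 at 13 Zfp9xx genes (5 shorter), −0.15 at 32 other numbered Zfp genes (10 shorter) and −0.34 at all 920 (461 shorter). Limiting the same range to a promoter CpG density below 0.6 gave −0.16 at 25 Zfp9xx genes, −0.28 at 42 other numbered Zfp genes and −0.35 at all 952, with 44.0%, 45.2% and 57.1% shorter. These ranges are broad, genes were not matched within them, and the part of control length and CpG density in the difference was not tested. The 11 Zfp9xx genes of 1000 to 1500 bp had −0.27 and 45.5% shorter, against −0.41 and 82.9% over 5693 genes. The 19 Zfp9xx genes of 750 to 1000 bp had −0.16, so the Zfp9xx medians did not follow control length in order.

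**Figure D4:**
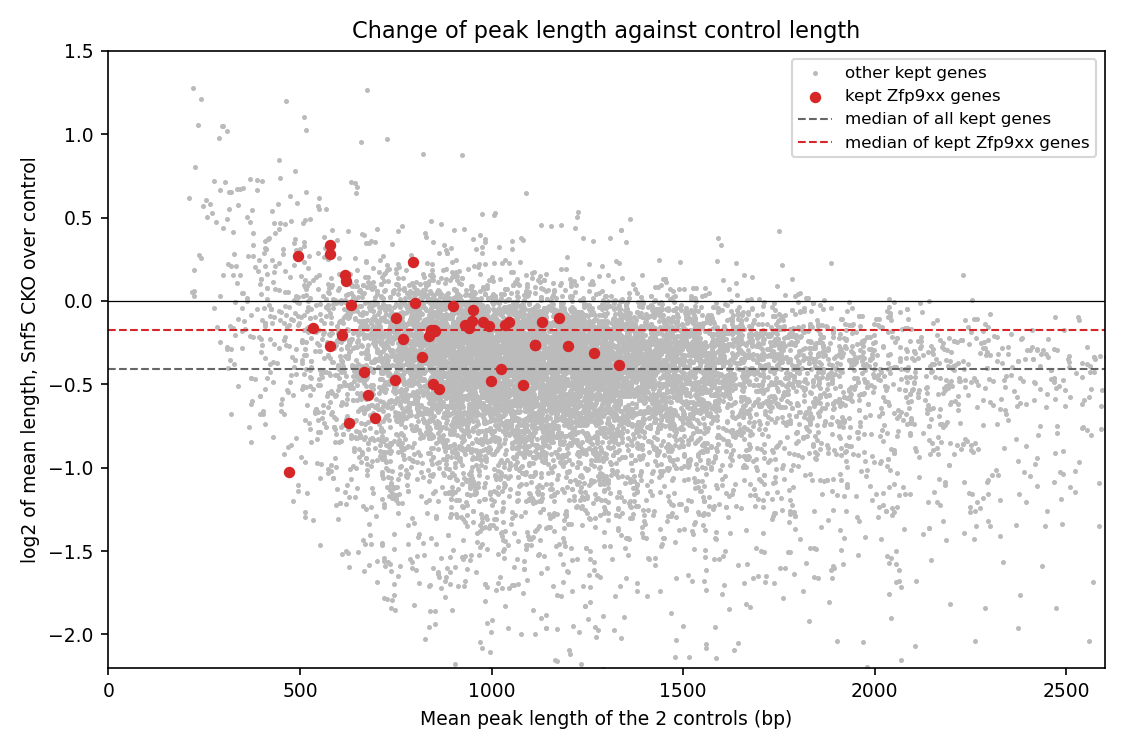
Log2 ratio of knockout over control peak length (vertical axis) against mean control length in bp (horizontal axis) at kept genes, with the Zfp9xx genes marked over all kept genes. Zfp9xx genes scatter from −1.03 to 0.33 around a median of −0.17, above the median of −0.41 over all kept genes, and 127 kept genes, none of them Zfp9xx, lie outside the axes.

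The members at the short end of the ratio had lengths that fell by different routes. Zfp952 had 298 and 647 bp in the controls and 218 and 246 bp in the knockout, a log2 ratio of −1.03 that was −0.36 without Control 2. Zfp991, in the chromosome 4 cluster, had 637 and 621 bp against 383 and 376 bp, a ratio of −0.73 that lay between −0.75 and −0.71 whichever library was left out. Zfp973 had 848 and 544 bp against 531 and 325 bp (−0.70, and −0.35 without Control 1). In these 3 genes both knockout lengths were the lowest. The same held at Zfp946, with 1098 and 628 bp against 614 and 585 bp (−0.53, and −0.07 without Control 1). Zfp967, with 824 and 530 bp against 595 and 320 bp (−0.57, and −0.19 without Snf5 CKO 2), overlapped between the genotypes. Zfp967 and Zfp973 belong to the near-identical copies, whose peaks cannot be told apart. Zfp966, with the same promoter sequence as Zfp967, had a ratio of 0.27.

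Only 3 genes were longer in both knockout libraries, 2 of them in the chromosome 17 cluster. Zfp940 had 472 and 686 bp in the controls and 758 and 700 bp in the knockout, a log2 ratio of 0.33 that was 0.09 without Control 1 and 0.63 without Control 2. Zfp983 had 615 and 543 bp against 768 and 637 bp (0.28, and 0.14 without Snf5 CKO 1). Zfp948 had 858 and 730 bp against 918 and 948 bp (0.23, and 0.12 without Control 2). Its listed start lies 1162 bp inside the gene, so the window holds only part of the peak: counting covered bases of the window gave 0.75, and windows of 500 bp gave no value. The direction of these 3 held without any 1 library, while their sizes moved. Zfp966 (750, 240, 672 and 521 bp, ratio 0.27) and Zfp970 (607, 626, 829 and 544 bp, ratio 0.16) overlapped between the genotypes. Their ratios turned to −0.33 without Control 2 and to −0.18 without Snf5 CKO 1, and both belong to the near-identical copies.

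By cluster, the 3 kept genes on chromosome 4 were all shorter, with a median ratio of −0.39. Zfp978 measured 1356, 1180, 1106 and 936 bp and Zfp982 1385, 1282, 1087 and 953 bp. The 10 genes of the chromosome 17 cluster had a median of −0.21 with 3 shorter and 2 longer, and the 3 on chromosome 8 had −0.06. Clustered and lone kept genes had similar medians, of −0.21 (n = 27) and −0.17 (n = 18).

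Where the start itself was covered in all 4 libraries, the change could be split by side. At 40 Zfp9xx genes the peak reached a median of 369.5, 373, 384 and 312 bp upstream of the start in Control 1, Control 2, Snf5 CKO 1 and Snf5 CKO 2. Downstream it reached 485.5, 442, 386.5 and 357 bp. Gene by gene the upstream reach changed by a median of −13.0 bp and the downstream reach by −74.25 bp, with 10 and 17 of the 40 genes shorter in both knockout libraries on that side. At all 8371 such genes the changes were −87.0 and −157.5 bp, with 56.2% and 72.5% shorter. On the upstream side Snf5 CKO 1 was the highest and Snf5 CKO 2 the lowest Zfp9xx library, so the genotypes overlapped there, while downstream both knockout medians lay below both controls. A few genes went the other way upstream. At Zfp970 the peak reached 180 and 213 bp upstream in the controls and 395 and 389 bp in the knockout, while downstream it reached 426, 412, 433 and 154 bp. At Zfp948 the upstream reach was 501 and 369 bp in the controls and 632 and 613 bp in the knockout. The same held at Zfp971 (253 and 232 bp against 414 and 395 bp) and Zfp966 (361 and 162 bp against 376 and 397 bp). Zfp966, Zfp970 and Zfp971 are among the near copies described above. These genes were named after their values were seen.

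**Figure D5:**
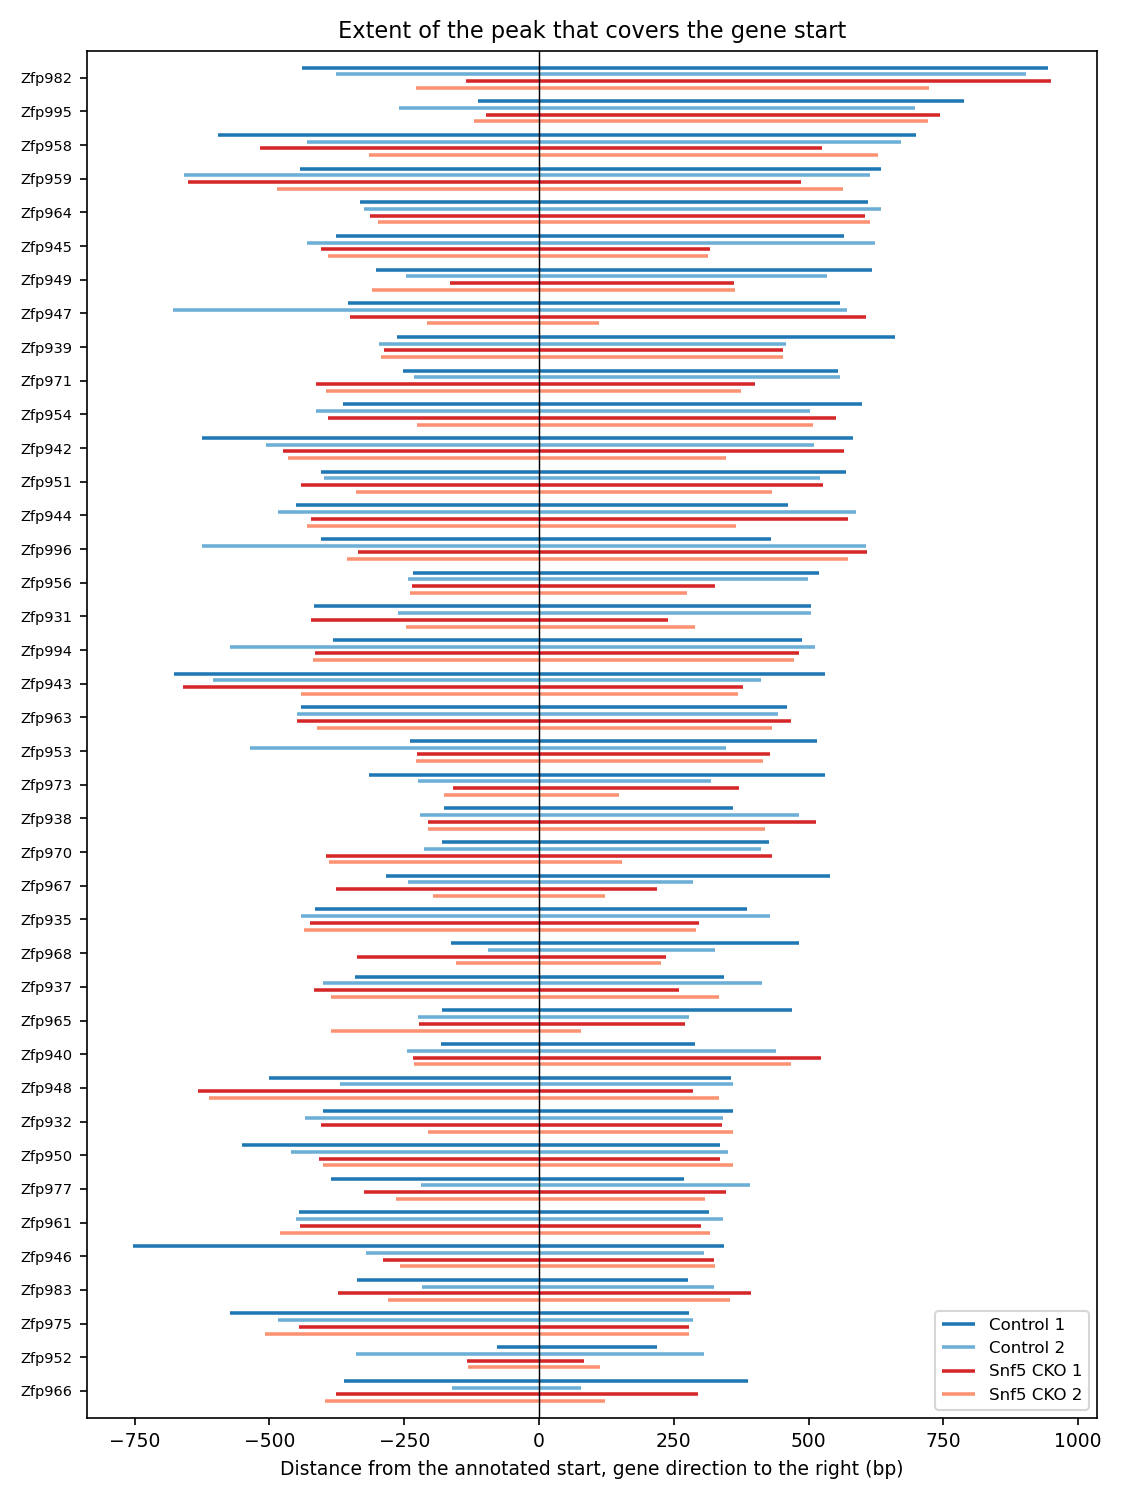
Stretch covered by the peak over the transcription start in each library, as distance in bp upstream (left) and downstream (right), for the 40 kept Zfp9xx genes with a covered start, 1 row per gene. Downstream ends differ more between genotypes than upstream ends, with median changes of −74.25 and −13.0 bp. At Zfp948, Zfp966, Zfp970 and Zfp971 both knockout peaks reach farther upstream than both control peaks, and the last 3 are near copies.

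Peak height was above that of most open genes within each list. The fold of the strongest peak, the authors' enrichment over local background, had a median over the open Zfp9xx genes of 5.26 (Control 1), 5.64 (Control 2), 6.24 (Snf5 CKO 1) and 6.40 (Snf5 CKO 2). All open genes of the same lists had 4.61, 4.57, 5.22 and 5.14, and other numbered Zfp genes lay in between, from 4.97 in Control 1 to 5.56 in Snf5 CKO 1. The order, Zfp9xx above other Zfp above all open genes, was the same in each list.

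Genes were ordered for naming by the lowest of their folds in the 4 lists, which does not compare the lists. By it the 5 highest kept genes were Zfp932 (6.72), Zfp964 (6.41), Zfp963 (6.37), Zfp951 (6.34) and Zfp930 (6.17). The chromosome 8 cluster lies among these 5 with all 3 of its genes. Zfp964 measured 943, 960, 918 and 913 bp, Zfp963 902, 894, 917 and 845 bp, and Zfp930 652, 568, 542 and 516 bp, the last a log2 ratio of −0.21 with both knockout lengths below both controls. The 5 lowest were Zfp952 (3.22), Zfp991 (3.32), Zfp974 (3.38), Zfp995 (3.64) and Zfp954 (3.69), of which Zfp952 and Zfp991 also had the most negative length ratios. Zfp974 measured 632, 704, 693 and 302 bp, so that Snf5 CKO 2 alone set it apart.

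Genes of the corepressor pathway of KRAB zinc finger proteins were followed beside them, from a list of 24 that also holds the zinc finger genes Zfp57 and Zfp445. Of these, 21 were kept, beside 55.0% of all genes, 0 were lost or gained, and those without a peak at a gene end included Tasor (of the HUSH complex) and Zfp57 (a zinc finger gene of imprinting). Peaks were shorter in both knockout libraries than in both controls at 17 of the 21, beside 77.3% of all kept genes, and longer at 0, with a median log2 ratio of −0.40, close to the −0.41 of all kept genes. Trim28 had 1900 and 2326 bp in the controls and 1617 and 1218 bp in the knockout. Chd4, a NuRD remodeller subunit, had 3403 and 2996 bp against 1310 and 1164 bp, and Zfp445, another zinc finger gene of imprinting, 1127 and 1060 bp against 364 and 429 bp. Setdb1 overlapped between the genotypes, with 1200 and 1117 bp against 944 and 1173 bp.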

How the data were processed

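Reads of 50 bp had been processed, per the submitters' processing notes, on mm10 with MACS2 2.2.7.1, Picard 2.25.2, SAMtools 1.10, Bowtie2 2.4.2 and Trim Galore 0.6.5. Not given in the sources used here are peak thresholds and the handling of duplicate, mitochondrial and multiply mapped reads. What the authors deposited is a broad peak list per library, with a score, a fold ratio over local background, and −log10 p and −log10 q for each peak. The lowest deposited −log10 q was 1.00 to 1.02.

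Windows of 1 kb around both gene ends came from the RefSeq table of GRCm38.p6, with an overlap of at least 1 bp. Lengths were compared at kept genes, folds within a list, the lowest of the 4 folds serving only to choose genes to name. Libraries were grouped by their genotype label, and library medians were compared by exact two-sided permutation tests. The text names each lost, gained, mixed or closed member, the 5 kept members at each extreme of length ratio and of weakest fold, and members with peaks at both ends. Members and lists were chosen with earlier results of these data known. Proteins were not analysed here. The values of 1 gene of the corepressor list are not reported here. Python 3.11.15, pandas 2.3.3, NumPy 2.4.6, SciPy 1.17.1 and matplotlib 3.10.9 were used. The code of the class calls was run on simulated data, where 800 of 800 genes were recovered in their class. Each simulated peak was centred on an annotated end of a long gene far from its neighbours. Clustered genes, shared peaks and starts inside the gene were therefore not tested.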

Additional observations from a re-analysis of the deposited data

How the results depend on the processing

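Across 20 settings, 169 recomputed values of the main results held and 7 moved, and 560 values of single genes held and 28 moved. A single-gene ratio held if it changed by no more than the SD between its replicates. It could thus change sign and still hold, as at Zfp966 without Control 2. Including symbols with a letter after the number could not alter single-gene values. The direction turned neither for the median ratio nor for any gene whose lengths did not overlap between the genotypes. Leaving out each library in turn gave 1 to 3 lost genes, 0 to 2 gained genes and 25 to 36 genes with shorter peaks. The 36 came without Snf5 CKO 1, where 1 library then stands for the knockout. Each of these rules is easier to meet with a library left out. Lost genes numbered 2, Zfp933 and Zfp941, when peaks under a −log10 q of 3 were dropped, and also 2 with lists cut to the length of the shortest. The median fold in Snf5 CKO 2 was 6.08 without the genes whose promoters share 50-base strings, an alternative chosen after seeing the data, as were the length range of 500 to 1000 bp and counting the shared peak of Zfp942 and Zfp943 once. The median log2 length ratio lay between −0.31 and −0.14 over 16 alternatives. With neighbours joined up to 200 kb there were 10 clusters, and up to 1 Mb 6. Same-numbered libraries shared no deviation in peak length (r = −0.014 across 12030 genes). This does not settle whether a number marks a shared origin. The median ratio with a replicate block was −0.18. Unknown depth limits all calls of absence.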

Other observations

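Among the genes without a peak at either end, Zfp993 held the most internal peaks. It had 11 and 8 in Control 1 and Control 2 and 16 and 10 in Snf5 CKO 1 and Snf5 CKO 2. Its annotation, chr4:146512849-146991471, is also by far the longest of these genes, and the counts are not set against length. The annotation of Zfp981 overlaps that of Zfp993 in part. The chromosome 17 cluster held 23, 26, 41 and 24 peaks over its span in the same order, so Snf5 CKO 1 had the most peaks there too.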
